A study of Danio rerio with 12 samples.

Results

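Cathepsins and other lysosomal hydrolases were followed through the microglia of 4 zebrafish genotypes. The set was named as 44 genes, of which 43 matched a symbol of the count table by the rule that case is ignored or that paralogues share a capital symbol, and these gave 45 of the 35117 gene IDs. By role, 11 IDs were proteases, 16 glycosidases and sulfatases, 8 lipid hydrolases with the activator GM2A, 8 membrane proteins and 2 granulins. The remaining name matched no symbol. ASAH1, GM2A and MCOLN1 stood for 2 IDs each. A symbol in capitals is the reference name of the zebrafish ID printed after it.

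Lysosomes are acid compartments in which enzymes break down proteins, sugars, lipids and nucleic acids that reach them by endocytosis, phagocytosis or autophagy. Soluble hydrolases are sorted there mostly by the mannose 6-phosphate tag. Membrane proteins such as the LAMPs line the compartment, and other membrane proteins carry its products out. Microglia, the resident macrophages of the brain, clear dying neurons and their debris through this route, and in zebrafish they do so while they colonise the embryonic brain.

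The RNA came from brains of 3-dpf (days post fertilisation) fish of the line Tg(mpeg1:DsRedx), in which the macrophage promoter mpeg1 drives a red protein, so all 4 groups carried this transgene. Brains of about 10 embryos were dissociated, 3 red cells were picked by hand into each tube, and poly(A) RNA was amplified by Smart-seq2, a full-length cDNA method, in 3 tubes for each genotype. Siblings formed one group, and the others were mutant for mafba, mutant for mafbb, or labelled DMut, a name that is not spelled out and is taken to mean both mutations. Neither the alleles nor the genotype of the siblings is stated in the labels. Both genes encode transcription factors of the Maf family. The comparisons ask how the set differed in each mutant group from siblings and in DMut from either single mutant.

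Total counts ran from 10014888 to 17689266 per tube. The mafbb gene (ENSDARG00000070542) had 5, 13 and 17 counts in sibling replicate 3, mafba replicate 3 and DMut replicate 3 and none in the other tubes. Some library features moved with genotype. Genes with at least 1 count numbered 7077 to 7665 in siblings, 7038 to 10521 in mafba, 5100 to 6141 in mafbb and 7808 to 9297 in DMut, and spike-in RNA took 0.194% to 0.342% of all counts in siblings but 0.662% to 0.798% in mafbb. The 21 IDs of a microglia marker list took 4.75% to 6.67% of gene counts in siblings, 2.05% to 6.06% in mafba, 2.33% to 4.34% in mafbb and 0.520% to 0.773% in DMut. Of 11 neutrophil IDs, 2 had a count in siblings and 7 in DMut, with shares of 0.0154% to 0.0160% and 0.0537% to 0.108%. The neutrophil share was 0.0069% to 0.0374% in mafba and 0.0227% to 0.0259% in mafbb, where each tube was also above each sibling tube. Of 8 epidermal and metaphocyte IDs, 1 had a count in siblings and 6 in DMut, with at most 0.0072% of gene counts. The 13 cell cycle IDs took 0.0807% to 0.336% in mafba, highest in replicate 2, against 0.0062% to 0.0773% in siblings. They took 0.0075% to 0.0831% in mafbb and 0.0740% to 0.131% in DMut. Of 11 radial glia IDs, 4 had a count in siblings, where the list took 0.358% to 0.936%, and 4 in DMut, where it took 0.0204% to 0.0287%. The radial glia list took 0.274% to 0.810% in mafba and 0.178% to 0.317% in mafbb, where each tube was also below each sibling tube. For the 15 myeloid IDs the share was 0.474% to 0.702% in siblings, against 0.723% to 0.877% in DMut. It was 0.590% to 0.888% in mafba and 0.736% to 0.917% in mafbb, where each tube was also above each sibling tube. Neuronal markers took at most 0.0248% in any tube, and the 7 erythroid IDs had no count. The marker lists were chosen with earlier results of these data known, so their shares do not describe the tubes independently. The part of these features in the results below was not tested.

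Levels are given as CPM, counts scaled to a common library size after correction by TMM (trimmed mean of M values). Differences are given as log2 fold changes from one edgeR quasi-likelihood model over all 12 tubes. Their standard error (SE) was derived from the test, as the size of the log2 fold change over the square root of its F statistic. Genes were called at a Benjamini-Hochberg adjusted p under 0.05 over the 9519 genes tested. CPM is not corrected for transcript length, so levels are compared between tubes and not between genes. The labels do not say that the tubes of a genotype came from separate pools, so p measures the spread between tubes. In tubes of picked cells, fewer expressing cells and less RNA per cell cannot be told apart.

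No member passed the test in any of the 6 comparisons. Of the 45 IDs, 43 were tested. The second GM2A ID (ENSDARG00000107431) had no count in any tube, and the second MCOLN1 ID (ENSDARG00000058848) had 1 count in 1 tube, so both fell below the filter. Over all 4 genotypes edgeR called 0 of 43 members, beside 0.84% of all genes tested. There 8 of the 43 members had an unadjusted p under 0.05, beside 1136 of 9519 genes (11.9%). For mafba against siblings it called 0 members (background 0.0%), with 3 at an unadjusted p under 0.05 (background 7.82%), and for mafbb against siblings 0 (0.0735%), with 7 (18.6%). For DMut against siblings it called 0 (0.714%), with 7 (12.5%), for DMut against mafba 0 (0.399%), with 5 (8.03%), and for DMut against mafbb 0 (0.725%), with 10 (20.6%). DESeq2 called 0 members over all 4 genotypes (background 0.0%) and in DMut against mafba (2.98%), 1 in mafba against siblings (3.68%), 2 in mafbb against siblings (10.1%), 1 in DMut against siblings (5.36%) and 3 in DMut against mafbb (10.6%). Its calls were of IDS, IDUA and NEU1, each at 0 in every tube of at least 1 genotype. The unadjusted shares of members, 6.98% in mafba, 16.3% in mafbb and 16.3% in DMut against siblings, stood beside 7.82%, 18.6% and 12.5% of all genes. In DMut against mafba and against mafbb these shares were 11.6% and 23.3%, beside 8.03% and 20.6% of all genes. Most members were well detected, since 30 of the 45 were counted in all 12 tubes. Their median coefficient of variation among siblings was 38.3%, against 93.2% for all genes tested, and 22.0% for the proteases. In mafba, mafbb and DMut the members' median was 62.7%, 72.0% and 58.5%, against 93.8%, 133% and 88.8% for all genes tested. For the proteases it was 58.9%, 56.8% and 57.7% in these groups.

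The cathepsins and legumain, the proteases of the set, were all counted in every tube. Cathepsins B, C, F, H, K, L and Z are cysteine proteases, cathepsin D is an aspartic protease, cathepsin A is a serine carboxypeptidase that also protects the sialidase NEU1, and legumain is an asparaginyl endopeptidase that cleaves other cathepsins. As a group they took 2.46%, 1.78% and 2.06% of gene counts in sibling replicates 1 to 3, 1.14%, 2.75% and 1.45% in mafba, 1.46%, 1.04% and 2.82% in mafbb, and 0.848%, 2.06% and 1.33% in DMut. The ranges of the 4 genotypes overlapped. The median log2 fold change of the 11 proteases was -0.08 in mafba, -0.34 in mafbb and -0.29 in DMut against siblings, beside 0.11, -0.20 and 0.07 for all genes tested.

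LGMN (ENSDARG00000039150), legumain, was at 2136, 1885 and 2856 CPM in siblings and 1066, 4194 and 2173 in mafba. It was at 720, 659 and 776 CPM in mafbb and 305, 1258 and 1155 in DMut. Every mafbb and DMut tube was below every sibling tube, while mafba tubes lay on both sides. Its mean was 3.19-fold lower in mafbb (log2 -1.67 ± 0.55, adjusted p = 0.263) and 2.53-fold lower in DMut (log2 -1.34 ± 0.54, adjusted p = 0.393). With no filter on low counts the adjusted p was 0.000295 and 0.00246 for these comparisons. The mafbb difference also passed the test with the compared groups alone (adjusted p = 0.000319) and with spike-in scaling (adjusted p = 0.00174). Spike-in scaling also moved the median log2 fold change of all genes in this comparison to -1.58. The mafbb difference did not pass with DESeq2, DESeq2 size factors, library size alone, the stricter filter, robust=FALSE or any 1 tube left out. Both differences passed with replicate number as a block. Beside this and no filter, the DMut difference passed in no alternative. Against mafba, the DMut mean was 2.73-fold lower, with overlap (log2 -1.45 ± 0.54, adjusted p = 0.614). That adjusted p was 0.000875 with no filter and 9.06e-05 with the block.

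ctsla (ENSDARG00000007836), a cathepsin L paralogue, was at 3015, 5173 and 4006 CPM in siblings, 1321, 4727 and 1656 in mafba, 1053, 865 and 2990 in mafbb, and 533, 2511 and 452 in DMut. The 3 DMut tubes and the 3 mafbb tubes lay below the lowest sibling tube, with DMut replicate 2 and mafbb replicate 3 well above the rest of their groups. The DMut mean was 3.49-fold lower than in siblings (log2 -1.80 ± 0.85, adjusted p = 0.402). Its paralogue ctsl.1 (ENSDARG00000003902), singled out after its values were seen, was at 2961, 129 and 244 CPM in siblings, 297, 1821 and 721 in mafba, 715, 794 and 6930 in mafbb, and 43.2, 0.117 and 338 in DMut. In counts this ran from 1 in DMut replicate 2 to 120843 in mafbb replicate 3, and the tubes of every genotype differed widely. Paralogues may share reads, and no label says how such reads were counted, so the split between ctsla and ctsl.1 is uncertain. Without both genes the remaining 9 proteases took 1.77%, 1.29% and 1.64% of gene counts in siblings and 0.785%, 1.84% and 1.26% in DMut.

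ctsf (ENSDARG00000063095), cathepsin F, was at 170, 112 and 134 CPM in siblings and at 35.5, 33.1 and 40.03 in DMut. The mafba tubes were at 58.3, 198 and 92.6 CPM and the mafbb tubes at 257, 142 and 74.7. All 3 DMut tubes were below all 9 others, and they agreed closely. The mean was 3.83-fold lower in DMut than in siblings (log2 -1.94 ± 0.99, adjusted p = 0.394) and 4.36-fold lower than in mafbb (log2 -2.12 ± 0.99, adjusted p = 0.24).

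CTSK (ENSDARG00000040251), cathepsin K, best known as the collagenase of osteoclasts, was at 808, 997 and 594 CPM in siblings, 1415, 1729 and 1755 in mafba, 1100, 1661 and 3881 in mafbb, and 973, 6491 and 2594 in DMut. Each mafba and mafbb tube was above each sibling tube, while DMut replicate 1 fell within the sibling range. The DMut mean was 4.19-fold higher than in siblings (log2 2.07 ± 0.69, adjusted p = 0.393). Without DMut replicate 1 the difference was 2.51 on the log2 scale with an adjusted p of 0.0249, and without DMut replicate 2, the highest tube, it was 1.14 with an adjusted p of 0.548. In mafba it was 2.04-fold higher (log2 1.03 ± 0.67, adjusted p = 1) and in mafbb 2.77-fold higher (log2 1.47 ± 0.68, adjusted p = 0.269).

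CTSC (ENSDARG00000101334), the dipeptidyl peptidase that activates granule serine proteases, was at 781, 950 and 312 CPM in siblings and 718, 1433 and 776 in mafba. It was at 263, 361 and 691 CPM in mafbb and 860, 859 and 1552 in DMut, where every tube was above every mafbb tube. DMut was 2.49-fold higher than mafbb in mean (log2 1.31 ± 0.41, adjusted p = 0.148). This difference passed in edgeR with the replicate block (adjusted p = 0.0228) and with spike-in scaling (adjusted p = 0.00066). Spike-in scaling also moved the median of all genes in this comparison to 2.16. With any 1 tube left out it did not pass. CTSH (ENSDARG00000041108), an aminopeptidase of the same family, was at 502, 251 and 209 CPM in siblings and 212, 525 and 330 in mafba. It was at 260, 104 and 465 CPM in mafbb and 739, 722 and 436 in DMut. The lowest DMut tube was below the highest tube of each other genotype, and the DMut mean was 1.97-fold that of siblings (log2 0.98 ± 0.51, adjusted p = 0.395).

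The other 4 proteases had no adjusted p under 0.05 in any comparison. For CTSB (ENSDARG00000055120) all tubes lay between 2288 and 9198 CPM, and DMut differed from siblings by -0.25 ± 0.55 on the log2 scale. CTSD (ENSDARG00000057698) ranged from 1079 to 4867 CPM, both ends in DMut, with a DMut difference of -0.29 ± 0.63, and its 3 mafbb tubes were below its 3 sibling tubes. CTSA (ENSDARG00000098114) ranged from 222 to 890 CPM and differed by -0.08 ± 0.44. CTSZ (ENSDARG00000043081) was at 449 to 1856 CPM in DMut and 1992 to 2702 in siblings, which did not overlap, with a difference of -0.95 ± 0.61 (adjusted p = 0.71).

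**Figure D1:**
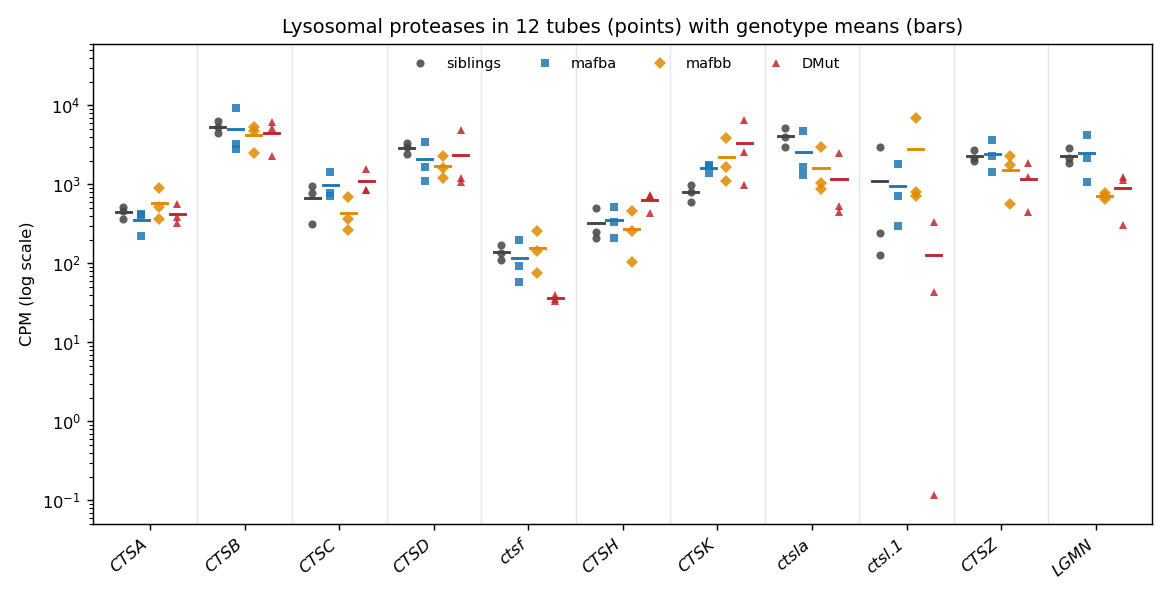
CPM of the 11 lysosomal proteases on a log axis, with a point for each of 3 tubes per genotype and a bar for the genotype mean. DMut tubes of ctsf and LGMN lie below all sibling tubes, and ctsl.1 spreads widest, down to 0.117 CPM in DMut replicate 2.

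Glycosidases and sulfatases, which take sugars and sulfate groups off glycoproteins, glycolipids and glycosaminoglycans, were more sparsely counted. Of 16 IDs, 6 were counted in all 12 tubes. IDs with a count numbered 13 to 14 per tube in siblings, 13 to 15 in mafba, 8 to 10 in mafbb and 12 to 13 in DMut, so each mafbb tube held fewer than each other tube, as it also held fewer genes of any kind. Their summed share of gene counts was 0.285%, 0.232% and 0.216% in siblings, 0.320%, 0.205% and 0.156% in mafba, 0.112%, 0.167% and 0.254% in mafbb, and 0.105%, 0.192% and 0.104% in DMut. In this sum every DMut tube was below every sibling tube, and the other genotypes overlapped both. The sum is weighted to the most counted IDs, and the separation did not hold for most IDs taken singly. Of the 16 IDs, 2 were lower in all DMut tubes than in all sibling tubes (12.5%, beside 7.33% of all genes). Another 3 were higher (18.8%, beside 9.86%). Among these was IDS, whose order rests on 1 count in DMut replicate 2, too few to tell from 0. The median log2 fold change of the 16 was -0.16 in mafba, -0.77 in mafbb and -0.42 in DMut against siblings. For all genes tested it was 0.11, -0.20 and 0.07. With genotypes at 0 set to a floor of 3 counts over the group, the mafbb median of the 16 was -0.89, beside -0.30 for all genes.

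Several glycosidase genes were at 0 in whole genotypes, and folds for these are bounds from the floor of 3 counts over a group, equal to 0.0794 CPM for siblings, 0.0672 for mafba, 0.0698 for mafbb and 0.0977 for DMut. Reads carried no molecular identifiers, so such bounds cover counting error only. NEU1 (ENSDARG00000008832), the lysosomal sialidase, was at 95.5, 23.0 and 44.9 CPM in siblings, 0.106, 42.9 and 35.6 in mafba, and 53.3, 0.234 and 18.8 in DMut. No mafbb tube had a count, which puts the mafbb mean at least 781-fold lower than that of siblings (adjusted p = 0.263 by edgeR and 9.78e-05 by DESeq2). IDS (ENSDARG00000071699), iduronate sulfatase, was at 0 in all sibling and mafbb tubes, at 63.6, 7.16 and 0.0676 CPM in mafba and at 59.9, 0.117 and 22.1 in DMut. Its mean was at least 297-fold higher in mafba than in siblings (adjusted p = 0.608) and at least 345-fold higher in DMut (adjusted p = 0.393), with DESeq2 at 0.0186 and 0.0117. In mafba and in DMut alike, 1 of the 3 tubes held a single IDS count.

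NAGLU (ENSDARG00000030156), which acts on heparan sulfate, was at 0, 10.8 and 13.2 CPM in siblings and 7.61, 0.725 and 0 in mafba, and had no count in mafbb or DMut. The sibling mean was at least 115-fold that of mafbb and at least 81.8-fold that of DMut (adjusted p = 0.263 and 0.393), although sibling replicate 1 had no count either. GAA (ENSDARG00000090714), the acid alpha-glucosidase that degrades glycogen, was counted in sibling replicate 1 at 4.37 CPM and in DMut replicates 1 and 2 at 27.9 and 28.9 CPM, and in no other tube. The DMut mean was at least 282-fold that of mafba (adjusted p = 0.614) and at least 271-fold that of mafbb (adjusted p = 0.24). IDUA (ENSDARG00000062904), the iduronidase of the same glycosaminoglycan pathway as IDS, was at 0, 0.101 and 29.9 CPM in siblings, 0.0532, 17.7 and 27.3 in mafba, and 0, 0 and 5.86 in DMut. In mafbb it had no count (adjusted p = 0.263 against siblings by edgeR and 2.69e-09 by DESeq2), but 2 of the 3 sibling tubes also held at most 1 count. MANBA (ENSDARG00000008238), beta-mannosidase, was at 4.84, 22.7 and 40.2 CPM in siblings, 234, 313 and 15.2 in mafba, 95.3, 11.4 and 95.4 in mafbb, and 84.6, 45.7 and 62.4 in DMut. All DMut tubes were above all sibling tubes (log2 1.51 ± 1.29, adjusted p = 0.974), and the mafba mean was 8.29-fold that of siblings with 1 tube within their range (log2 3.05 ± 1.36, adjusted p = 0.608).

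GUSB (ENSDARG00000063126), beta-glucuronidase, singled out after its values were seen, was at 69.3, 52.1 and 63.0 CPM in siblings, 4.9996, 105 and 56.9 in mafba, 9.57, 0 and 0 in mafbb, and 83.3, 89.0 and 132 in DMut. The mafbb tubes were below all siblings (log2 -4.27 ± 2.16, adjusted p = 0.263) and the DMut tubes above them (log2 0.72 ± 1.90, adjusted p = 1). FUCA2 (ENSDARG00000044073), a fucosidase, was at 598 to 869 CPM in siblings and 250 to 839 in DMut, with a difference of -0.62 ± 0.59. The 2 alpha- and beta-galactosidase genes GLA (ENSDARG00000036155) and GLB1 (ENSDARG00000036415) differed between DMut and siblings by -0.22 ± 3.30 and 1.28 ± 1.09, and HEXA (ENSDARG00000052113) by 0.48 ± 1.72. For MAN2B1 (ENSDARG00000001897), an alpha-mannosidase, the DMut tubes at 31.8 to 49.6 CPM were below the sibling tubes at 88.3 to 119 CPM (log2 -1.44 ± 1.72). ARSA (ENSDARG00000042270) and AGA (ENSDARG00000004889) overlapped between DMut and siblings and had differences of -2.94 ± 3.78 and -1.18 ± 2.03.

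**Figure D2:**
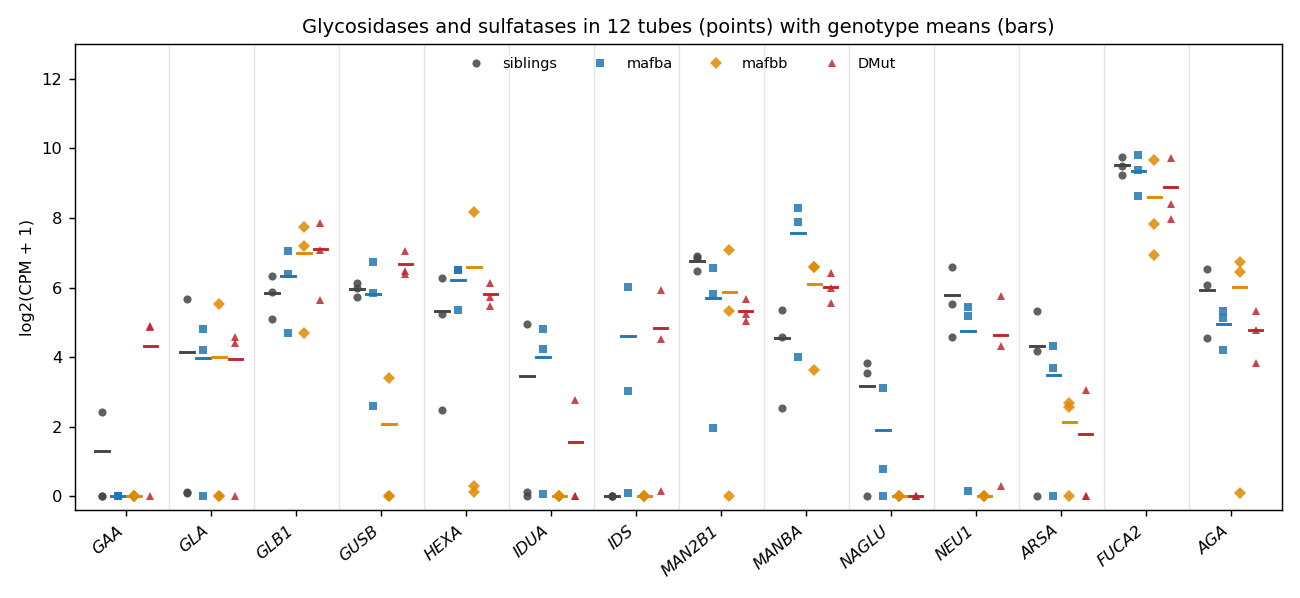
log2(CPM + 1) of 14 of the 16 glycosidase and sulfatase genes, with a point for each of 3 tubes per genotype and a bar at the genotype mean CPM. NEU1, IDS, NAGLU, GAA and IDUA are at 0 in all mafbb tubes.

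The lipid hydrolases were the group whose median stood highest in DMut. Its 7 tested IDs had a median log2 fold change of 0.59 in DMut against siblings, 6 of them above 0, beside 0.07 for all genes, and of 0.15 in mafba and 0.27 in mafbb. Their share of gene counts was 0.181%, 0.111% and 0.134% in siblings, 0.224%, 0.142% and 0.163% in mafba, 0.144%, 0.265% and 0.245% in mafbb, and 0.250%, 0.223% and 0.160% in DMut, so DMut and siblings overlapped through 1 tube each.

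LIPA (ENSDARG00000018529), the acid lipase that frees cholesterol and fatty acids from lipoproteins, was at 63.2, 149 and 147 CPM in siblings and 132, 78.5 and 247 in mafba. It was at 12.1, 24.4 and 349 CPM in mafbb and 470, 339 and 614 in DMut. All DMut tubes were above all sibling and mafba tubes, and mafbb replicate 3 stood above the lowest DMut tube. The mean was 3.96-fold higher in DMut than in siblings (log2 1.98 ± 0.90, adjusted p = 0.393), 3.11-fold higher than in mafba (log2 1.64 ± 0.89, adjusted p = 0.699) and 3.69-fold higher than in mafbb (log2 1.88 ± 0.90, adjusted p = 0.24). Without mafbb replicate 3 the last difference was 4.70 on the log2 scale, with an adjusted p of 0.00196, and without mafbb replicate 1 it was 1.34, with an adjusted p of 0.332. It also passed in edgeR with the replicate block (adjusted p = 0.0228) and with spike-in scaling (adjusted p = 0.00705).

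ASAH1 (ENSDARG00000034817), an acid ceramidase gene, was at 45.7, 74.9 and 116 CPM in siblings, 227, 351 and 247 in mafba, 44.6, 383 and 272 in mafbb, and 139, 387 and 182 in DMut. Every mafba and DMut tube was above every sibling tube, and mafbb replicate 1 was at the sibling level. Means were 3.49-fold, 2.96-fold and 3.00-fold those of siblings in mafba, mafbb and DMut, with log2 differences of 1.80 ± 0.70, 1.57 ± 0.70 and 1.58 ± 0.70 (adjusted p = 0.608, 0.263 and 0.393). The second ceramidase ID (ENSDARG00000037091) was at 98.9, 85.3 and 156 CPM in siblings, 37.6, 107 and 164 in mafba, 211, 129 and 372 in mafbb, and 180, 181 and 152 in DMut. It overlapped siblings in all 3 mutant groups, and its DMut difference was 0.59 ± 0.77 (adjusted p = 1). The split of reads between these paralogues is uncertain.

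PPT1 (ENSDARG00000039980), the thioesterase that removes palmitate from proteins, was at 594, 389 and 393 CPM in siblings, 981, 515 and 598 in mafba, 523, 1110 and 866 in mafbb, and 705, 415 and 274 in DMut. Its mean in mafbb was 1.82-fold that of siblings (log2 0.86 ± 0.41, adjusted p = 0.263), with 1 tube within their range, and that of DMut differed from siblings by 0.02 ± 0.40. GM2A (ENSDARG00000088439), which presents gangliosides to hexosaminidase, was at 344, 390 and 337 CPM in siblings, 263, 442 and 283 in mafba, 286, 656 and 347 in mafbb, and 485, 1067 and 360 in DMut (log2 0.84 ± 0.46 in DMut, adjusted p = 0.431). PLA2G15 (ENSDARG00000103271), a lysosomal phospholipase, was at 378, 84.5 and 93.3 CPM in siblings, 431, 55.5 and 132 in mafba, 168, 83.6 and 58.8 in mafbb, and 232, 187 and 308 in DMut. In DMut it overlapped siblings (log2 0.39 ± 0.75, adjusted p = 1) and was above all mafbb tubes (log2 1.23 ± 0.76, adjusted p = 0.372). SMPD1 (ENSDARG00000076121), acid sphingomyelinase, ranged from 0 to 110 CPM and had a DMut difference of -1.02 ± 2.31.

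The membrane proteins took 0.325%, 0.341% and 0.376% of gene counts in siblings, 0.264%, 0.416% and 0.353% in mafba, 0.260%, 0.128% and 0.305% in mafbb, and 0.253%, 0.335% and 0.392% in DMut. Each mafbb tube was below each sibling tube, and the other mutants overlapped siblings. This sum is weighted to the most counted IDs. Of the 7 tested IDs taken singly, LAMP2 alone was lower in all mafbb tubes (14.3%, beside 9.05% of all genes). The median log2 fold change of the 7 tested IDs was 0.21 in mafba, -0.65 in mafbb and -0.96 in DMut against siblings. For all genes tested it was 0.11, -0.20 and 0.07. In DMut, 3 of the 7 were above 0 and 4 below, with a median SE of 2.04, so this median is not a fall of the whole group. LAMP2 (ENSDARG00000014914), a lysosome-associated membrane glycoprotein, was at 565, 544 and 552 CPM in siblings, 541, 298 and 324 in mafba, 135, 103 and 302 in mafbb, and 210, 358 and 288 in DMut. Every mutant tube was below every sibling tube, and sibling tubes had a coefficient of variation of 1.92%. The mean was 1.43-fold lower in mafba (log2 -0.51 ± 0.49, adjusted p = 1), 3.08-fold lower in mafbb (log2 -1.62 ± 0.50, adjusted p = 0.263) and 1.94-fold lower in DMut (log2 -0.96 ± 0.50, adjusted p = 0.395). The mafbb difference passed in edgeR with spike-in scaling (adjusted p = 0.0438), which also moved the median of all genes to -1.58.

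NPC1 (ENSDARG00000017180), which moves cholesterol out of the lysosome, was at 201, 161 and 234 CPM in siblings, 184, 261 and 266 in mafba, 168, 8.78 and 102 in mafbb, and 36.7, 73.3 and 78.9 in DMut. DMut tubes were below all sibling and all mafba tubes, and mafbb spanned the DMut range. The mean was 3.16-fold lower than in siblings (log2 -1.66 ± 0.86, adjusted p = 0.395) and 3.77-fold lower than in mafba (log2 -1.91 ± 0.87, adjusted p = 0.614). CD63 (ENSDARG00000025147), a tetraspanin of late endosomes, was at 1839, 2822 and 2781 CPM in siblings, 1699, 4047 and 2878 in mafba, 1997, 966 and 2186 in mafbb, and 1950, 3397 and 4149 in DMut. DMut overlapped every other genotype, and differed by 0.35 ± 0.34 from siblings (adjusted p = 1) and 0.88 ± 0.34 from mafbb (adjusted p = 0.24). The CD63 difference from mafbb passed in edgeR with no filter (adjusted p = 0.0312) and with spike-in scaling (adjusted p = 0.00111).

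MCOLN1 (ENSDARG00000002285), the calcium channel TRPML1, was at 75.6, 104 and 55.8 CPM in siblings, 0.106, 41.3 and 82.6 in mafba, 0.583, 35.7 and 114 in mafbb, and 4.63, 40.7 and 30.7 in DMut. DMut was below all siblings (log2 -1.63 ± 2.04, adjusted p = 1), with an SE larger than the difference. scarb2a (ENSDARG00000098312), a membrane protein that takes part in sorting to lysosomes, was at 108, 25.3 and 128 CPM in siblings, 0.0532, 50.4 and 89.0 in mafba, 31.6, 27.5 and 97.1 in mafbb, and 0, 0 and 50.3 in DMut (log2 -2.38 ± 2.21, adjusted p = 1). lamp1b (ENSDARG00000092610) was at 0, 3.73 and 0 CPM in siblings, 0, 26.6 and 3.31 in mafba, 27.0, 0 and 0 in mafbb, and 10.98, 5.03 and 3.51 in DMut (log2 2.38 ± 3.79, adjusted p = 1). The related LAMP1 (ENSDARG00000100181) ranged from 9.08 to 80.5 CPM, with all DMut tubes above all siblings (log2 1.25 ± 2.29).

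The granulins, cysteine-rich lysosomal and secreted proteins that the zebrafish genes grna and grnb encode, took 0.0551%, 0.0436% and 0.0678% of gene counts in siblings, 0.203%, 0.0577% and 0.0567% in mafba, 0.106%, 0.0407% and 0.0670% in mafbb, and 0.0729%, 0.0741% and 0.137% in DMut, where each tube was above each sibling tube. grna (ENSDARG00000004954) was at 441, 407 and 657 CPM in siblings, 1805, 566 and 573 in mafba, 926, 268 and 619 in mafbb, and 606, 853 and 1565 in DMut. On this scale DMut and siblings overlapped by 1 tube, and the DMut mean was 2.01-fold higher (log2 1.01 ± 0.49, adjusted p = 0.393). grnb (ENSDARG00000025081) was at 36.2, 63.7 and 24.7 CPM in siblings, 96.2, 93.2 and 17.3 in mafba, 43.9, 98.1 and 1.15 in mafbb, and 54.5, 11.7 and 56.0 in DMut, with a DMut difference of -0.03 ± 1.88 (adjusted p = 1).

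**Figure D3:**
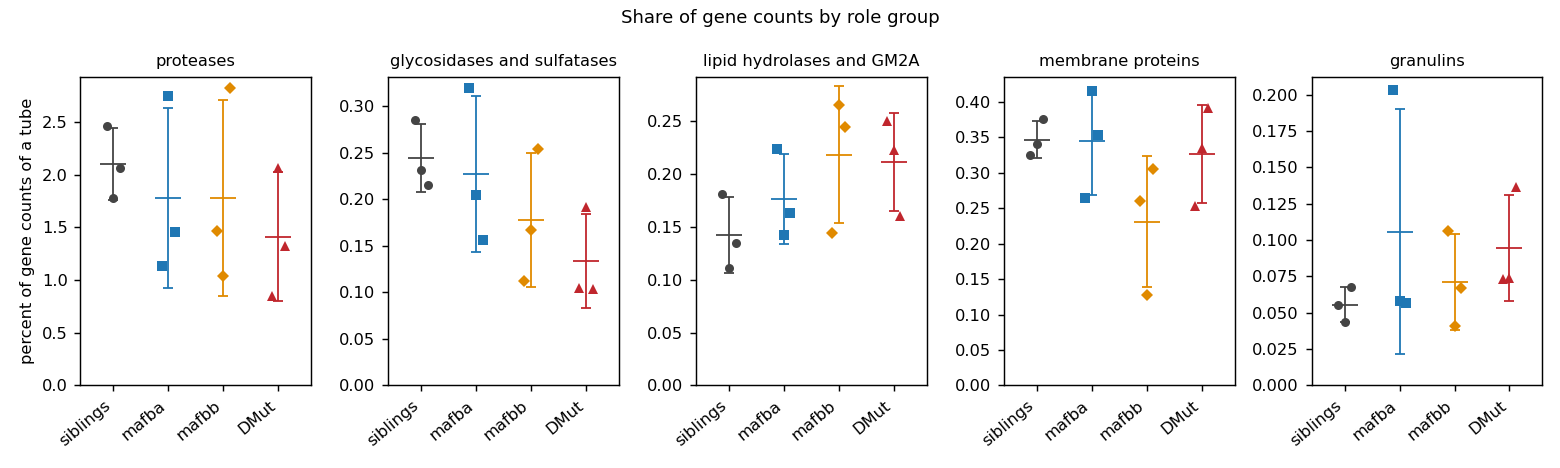
Percent of the gene counts of a tube taken by each role group, with a point for each of 3 tubes per genotype and a bar for the mean with its SD. DMut tubes lie below all sibling tubes for the sum of glycosidases and sulfatases and above them for granulins, and the genotypes overlap for proteases. Each sum is weighted to the most counted genes of its group.

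The genotypes can also be set side by side by whether their tubes overlapped. In mafba against siblings, 3 of the 43 tested members had a higher value in every mutant tube (6.98%, beside 5.61% of all genes), namely CTSK, IDS and ASAH1, and LAMP2 alone had all lower (2.33%, beside 3.7%). In mafbb, CTSK alone was higher (2.33%, beside 2.52%), and 7 were lower (16.3%, beside 9.05%), among them CTSD, ctsla, LGMN, GUSB, NEU1 and LAMP2. In DMut, 6 members were higher (14%, beside 9.86%), namely GUSB, MANBA, IDS, ASAH1, LIPA and LAMP1. Another 9 were lower in all DMut tubes (20.9%, beside 7.33%), among them ctsf, ctsla, CTSZ, LGMN, MAN2B1, LAMP2, NPC1 and MCOLN1. These comparisons share the sibling tubes. The members were also measured with less spread than most genes tested, with a median SE of 0.99 against 3.15 in DMut against siblings. Tubes separate more readily at a smaller spread, so the shares of members and of all genes are not like for like. Members were also chosen with earlier results of these data known. For IDS the order rests on 1 count in mafba replicate 3 and 1 count in DMut replicate 2, under the floor of 3 counts, so these tubes cannot be told apart from 0. Against mafba, DMut was higher for LIPA (2.33%, beside 7.39%) and lower for 3 members, among them ctsf and NPC1 (6.98%, beside 7.11%). Against mafbb it was higher for CTSC, GUSB, IDS, NEU1, PLA2G15 and LAMP1 (14%, beside 13.5%) and lower for ctsf and ctsl.1 (4.65%, beside 3.68%), and NEU1 there rests on 2 counts in DMut replicate 2.

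**Figure D4:**
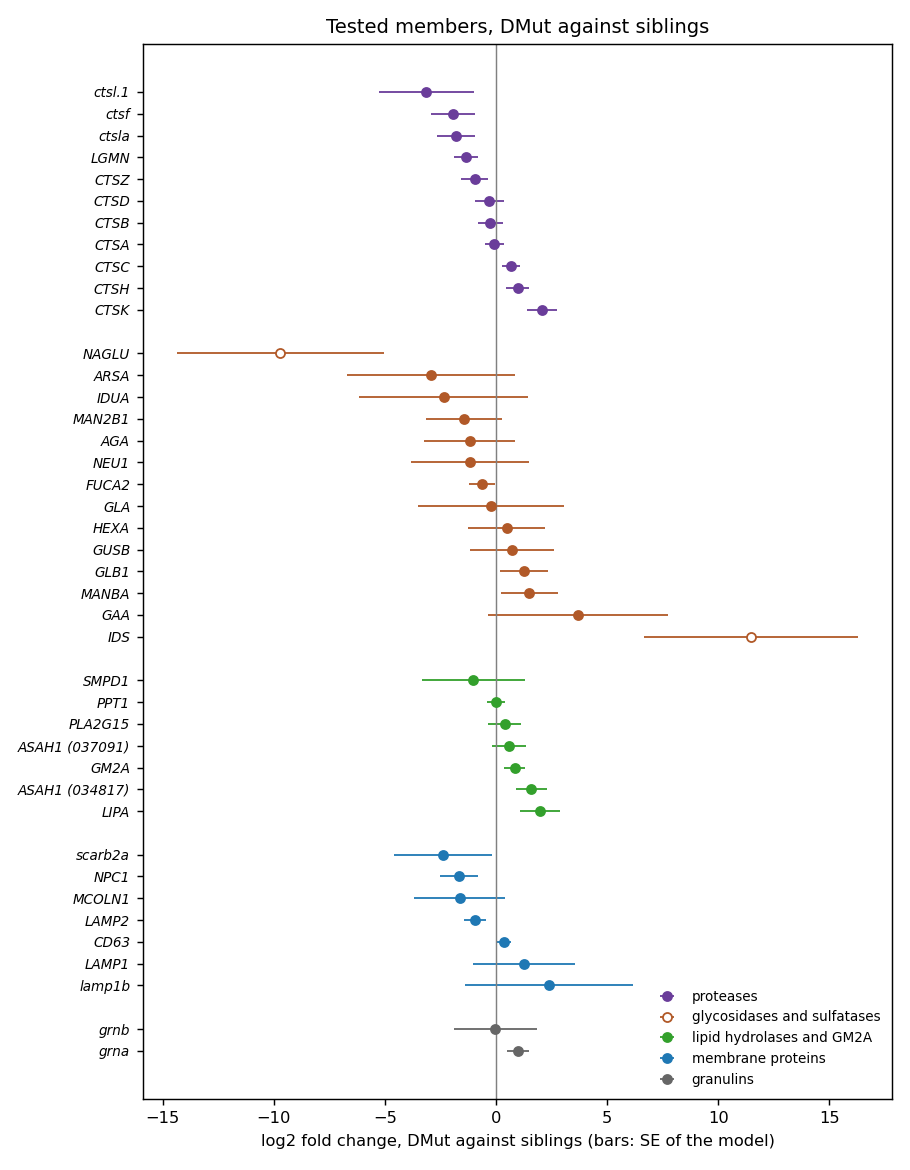
log2 fold change of 41 of the 43 tested members in DMut against siblings, ordered within each role group, with bars for the SE derived from the test. Filled points have a count in both genotypes, open points (NAGLU and IDS) are at 0 in one, and none passed an adjusted p of 0.05.

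Genes of the same pathway outside the set were read from 8 lists with 117 IDs, of which 94 were tested and 6 passed the test in at least 1 comparison. These lists were chosen with earlier results of these data known. Their calls beside the shares of all genes therefore cannot show an excess in the pathway. In DMut against siblings, 1 of 8 tested other proteases fell and 2 rose, 1 of 11 other hydrolases rose, 2 of 7 cofactors and lipid exporters fell, and none passed among 13 other glycosidases and sulfatases, 24 membrane proteins, 13 sorting genes, 15 regulators and 3 protease inhibitors. Of all genes tested, 0.252% were called higher and 0.462% lower in this comparison. In mafbb against siblings 1 cofactor fell (PSAP), beside 0.021% of all genes called higher and 0.0525% lower. In DMut against mafba 2 cofactors fell and 1 other hydrolase rose, beside 0.336% lower and 0.063% higher. In DMut against mafbb 1 cofactor fell, and 1 other protease and 1 other hydrolase rose, beside 0.347% lower and 0.378% higher.

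The 2 cofactors that fell serve the enzymes and the exporter described above. PSAP (ENSDARG00000013968), the precursor of the saposins that sphingolipid hydrolases need, was at 12422, 7706 and 10533 CPM in siblings, 4770, 10468 and 8711 in mafba, 3949, 4508 and 5122 in mafbb, and 1832, 2119 and 1782 in DMut. The levels descended from siblings through mafbb to DMut without overlap, and mafba overlapped siblings. PSAP fell by 2.42 ± 0.23 on the log2 scale in DMut (adjusted p = 6.86e-10) and by 1.18 ± 0.22 in mafbb against siblings (adjusted p = 0.0122). In DMut it also fell by 2.06 ± 0.23 against mafba (adjusted p = 6.07e-08) and by 1.24 ± 0.22 against mafbb (adjusted p = 0.000944), and the last difference turned to 0.53 with libraries scaled to the spike-ins. The mafbb call against siblings was lost without sibling replicate 1 or 3 or any 1 of the mafbb tubes (adjusted p from 0.0624 to 0.112). NPC2 (ENSDARG00000090912), which hands cholesterol to NPC1, was at 4675, 3354 and 4151 CPM in siblings, 1968, 4223 and 1881 in mafba, 1277, 2022 and 3599 in mafbb, and 809, 1032 and 578 in DMut. Its DMut tubes were below all 9 others. It fell by 2.33 ± 0.37 against siblings (adjusted p = 0.00222) and by 1.74 ± 0.36 against mafba (adjusted p = 0.0356), the second lost without mafba replicate 2, DMut replicate 1 or DMut replicate 3 (adjusted p of 0.059, 0.219 and 0.0556). The list holds a second NPC2 ID (ENSDARG00000096979), which passed in no comparison. How reads shared between paralogues were counted is not labelled.

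Among other proteases, TPP1 (ENSDARG00000042793), tripeptidyl peptidase, was at 1169, 975 and 775 CPM in siblings, 467, 577 and 510 in mafba, 271, 264 and 654 in mafbb, and 274, 433 and 233 in DMut. Every mutant tube was below every sibling tube, and only DMut passed the test (log2 -1.64 ± 0.42, adjusted p = 0.0455), a call lost without any 1 sibling tube, DMut replicate 1 or DMut replicate 3 (adjusted p from 0.0755 to 0.293). Against siblings TPP1 differed by -0.91 ± 0.41 in mafba (adjusted p = 0.608) and by -1.30 ± 0.42 in mafbb (adjusted p = 0.263). SCPEP1 (ENSDARG00000040072), a serine carboxypeptidase, was at 1120, 449 and 468 CPM in siblings, 1922, 2071 and 1263 in mafba, 1032, 948 and 1079 in mafbb, and 1494, 4283 and 1715 in DMut. It rose by 1.88 ± 0.38 in DMut (adjusted p = 0.0123), lost without sibling replicate 2 or DMut replicate 2 (adjusted p of 0.0622 and 0.139), and its mafba tubes too were above all siblings (log2 1.37 ± 0.38, adjusted p = 0.608). napsa (ENSDARG00000009313), napsin A, an aspartic protease, was at 142, 217 and 229 CPM in siblings, 252, 241 and 195 in mafba, 370, 66.8 and 141 in mafbb, and 607, 750 and 1115 in DMut. It rose 4.21-fold over siblings (log2 2.07 ± 0.53, adjusted p = 0.0455) and 4.28-fold over mafbb (log2 2.099 ± 0.53, adjusted p = 0.0401). The first call was lost without any 1 of the 6 tubes compared (adjusted p from 0.0603 to 0.393), and the second without mafbb replicate 2, mafbb replicate 3 or any 1 DMut tube (adjusted p from 0.0555 to 0.27).

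ACP5 (ENSDARG00000019763), the tartrate-resistant acid phosphatase, was at 189, 76.4 and 106 CPM in siblings, 200, 23.0 and 239 in mafba, 61.9, 59.0 and 61.5 in mafbb, and 790, 1937 and 726 in DMut, with no DMut tube near the others. It rose by 3.22 ± 0.62 against siblings (adjusted p = 0.00412), by 2.90 ± 0.61 against mafba (adjusted p = 0.0135) and by 4.24 ± 0.65 against mafbb (adjusted p = 0.000256). The first was lost without sibling replicate 2 or DMut replicate 2 (adjusted p of 0.0579 and 0.108), and the second without mafba replicate 1, mafba replicate 2 or DMut replicate 2 (adjusted p of 0.0731, 0.059 and 0.368).

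**Figure D5:**
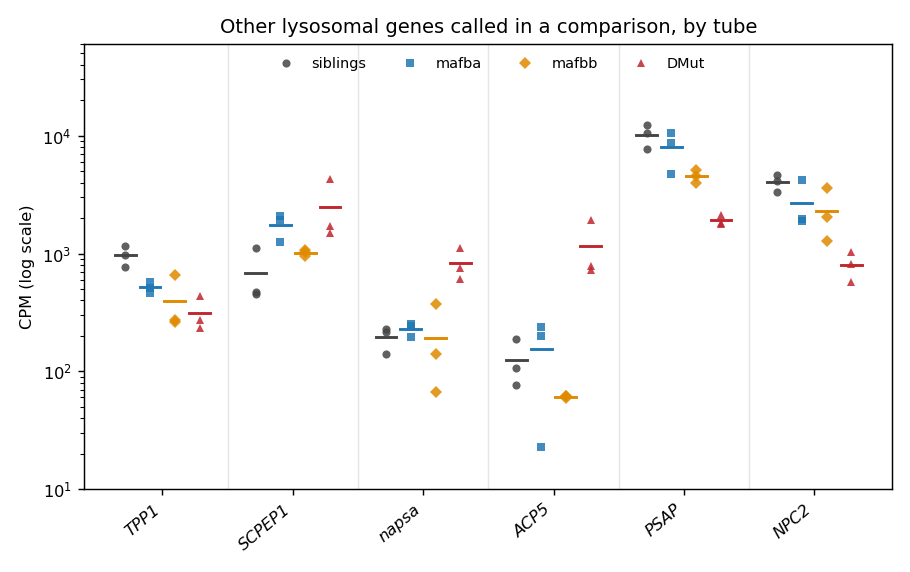
CPM on a log axis of the 6 genes of the pathway lists that passed the test in at least 1 comparison, with a point for each of 3 tubes per genotype and a bar for the mean. DMut tubes of PSAP and NPC2 lie below all 9 other tubes, and those of ACP5 and napsa above them.

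Of the pathway genes that did not pass, rnaset2 (ENSDARG00000036282), a lysosomal ribonuclease, was at 1276, 670 and 1548 CPM in siblings, 210, 1427 and 614 in mafba, 54.6, 60.2 and 497 in mafbb, and 41.8, 89.8 and 114 in DMut (log2 -3.83 ± 1.09 in DMut, adjusted p = 0.39). DMut tubes were below all sibling and mafba tubes. The cathepsin S gene ctss2.1 (ENSDARG00000074656) went from 581, 1341 and 1059 CPM in sibling tubes to 2116, 4006 and 3235 in DMut tubes (log2 1.65 ± 0.93, adjusted p = 0.563). FUCA1 (ENSDARG00000035890), a fucosidase gene for which the table holds a second ID, stood at 386, 506 and 349 CPM in sibling tubes against 201, 105 and 104 in DMut tubes (log2 -1.60 ± 0.55, adjusted p = 0.351), without overlap. Among membrane genes, the amino acid exporter SLC36A1 (ENSDARG00000075618) stood at 361, 291 and 539 CPM in sibling tubes against 141, 24.9 and 117 in DMut tubes (log2 -2.08 ± 0.66, adjusted p = 0.224), and the chloride exchanger CLCN7 (ENSDARG00000019556) at 49.3, 46.9 and 14.7 CPM against 176, 233 and 258 (log2 2.59 ± 1.07, adjusted p = 0.393). FUCA1 and SLC36A1 were not lower in every DMut tube than in every mafbb tube. Single mutant values of ctss2.1 and CLCN7 are not given here. cd68 (ENSDARG00000055504), a macrophage marker of late endosomes, was at 1826, 1962 and 1782 CPM in siblings, 1019, 815 and 1247 in mafbb, and 1446, 1893 and 1350 in DMut. Its mafbb tubes were below all sibling and DMut tubes (log2 -0.85 ± 0.28 against siblings, adjusted p = 0.263), and DMut overlapped siblings.

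MITF, a factor of the family that drives lysosomal genes in mammals, was represented by 2 IDs. The first (ENSDARG00000003732) had no count in siblings or mafbb, and was at 0.0532, 0 and 23.9 CPM in mafba and 22.7, 53.4 and 173 in DMut. The DMut mean was at least 1045-fold above siblings (adjusted p = 0.363). The second (ENSDARG00000037833) was at 0, 0.606 and 0 CPM in siblings, 0 in every mafbb tube, 22.5, 3.08 and 0 in mafba, and 50.7, 44.1 and 6.60 in DMut (log2 7.34 ± 4.41, adjusted p = 0.534). Both IDs stood higher in every DMut tube than in every sibling tube, and neither passed. Of the 15 regulators tested, 3 were higher in every DMut tube (20%, beside 9.86% of all genes) and 0 were lower (beside 7.33%). In edgeR 1 of the 15 had an unadjusted p under 0.05 in this comparison (6.67%, beside 12.5%). The regulator list, too, was chosen with earlier results of these data known.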

How the data were processed

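The values are the authors' deposited raw counts of reads for every gene, without normalization. Reads were processed with Trim Galore and STAR on GRCz11 (danRer11), per the submitters' processing notes. No counting tool, strand setting or annotation is named in the labels. The table has 35117 gene IDs and 92 ERCC spike-in sequences, which were left out of library sizes. Symbols came from a reference table that pairs them with Ensembl IDs.

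Genes were filtered with filterByExpr (minimum count 10, minimum total 15), leaving 9519, scaled by TMM and tested with edgeR 4.0.16 (glmQLFit, robust=TRUE; R 4.3.3) in 1 model of 4 genotypes over 12 tubes. The fitted common dispersion of 4 (biological coefficient of variation 2) limits what 3 tubes per group can show. The code was tested on simulated data with dispersions below the fitted one, so this check does not show how it performs at the spread of these tubes. DESeq2 1.42.0, other scalings, filters, a replicate block and tubes left out were alternatives.

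Members and lists were chosen with earlier results of these data known. Given in full were the 6 tested IDs per role group with the smallest p over all 4 genotypes, and IDs with a mean of 10 CPM or more in 1 genotype and 0 counts in another. Of the pathway lists, called IDs were named, and others from the 4 with the smallest p per list. A few genes are not reported here. Gene sequences and promoters were not analysed here.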

Additional observations from a re-analysis of the deposited data

How the results depend on the processing

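edgeR called 0 members in each comparison, and some alternatives called a few. Over all 4 genotypes the counts were 9 with spike-in scaling, 1 with no filter and 1 without mafba replicate 2 and mafbb replicate 3 together. Of all genes tested, these settings called 255 of 9519, 182 of 16088 and 88 of 9519. DESeq2 called 1 member in mafba against siblings, beside 592 of 16088 genes. In mafbb against siblings spike-in scaling called 4, no filter 1, DESeq2 2 and the compared groups alone 3. Calls over all genes there were 70 of 9519, 36 of 16088, 1625 of 16088 and 24 of 9519. In DMut against siblings library size alone called 1, no filter 2 and DESeq2 1, beside 65 of 9519, 115 of 16088 and 863 of 16088 genes. In DMut against mafba no filter called 1, beside 77 of 16088 genes. In DMut against mafbb spike-in scaling called 10, no filter 1, DESeq2 3 and the fit without mafba replicate 2 and mafbb replicate 3 called 1. Over all genes these settings called 366 of 9519, 134 of 16088, 1707 of 16088 and 59 of 9519. Leaving out 1 tube gave 0 to 1 member over all 4 genotypes and in each DMut comparison, and 0 in the other 2 comparisons. The tubes were mafba replicate 1 and DMut replicate 1 (LGMN), mafbb replicate 3 (LIPA) and DMut replicate 2 over all 4 genotypes. They were DMut replicate 1 (CTSK) and DMut replicate 2 against siblings, DMut replicate 2 against mafba, and mafbb replicate 1 (GUSB) and mafbb replicate 3 (LIPA) in DMut against mafbb. Of all 9519 genes, these fits called 55 to 86 over all 4 genotypes. In DMut they called 53 and 57 against siblings, 36 against mafba, and 87 and 66 against mafbb. The cause of the other differences was not tested. Spike-in scaling moved the median log2 fold change of all genes from -0.20 to -1.58 in mafbb against siblings and from 0.37 to 2.16 in DMut against mafbb, where the members' median minus that of all genes was then -0.27 and -0.31.

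The labels do not say whether tubes of equal replicate number belong together. Over 18 pairs of equal number, deviations from the genotype means correlated from -0.024 to 0.031, and 0 exceeded 0.1. With 3 cells per tube and a wide spread between tubes, a shared origin could be hidden, so this check does not exclude pairing. With the number as a replicate block edgeR called 3 members over all 4 genotypes, beside 156 of 9519 genes. Against siblings it called 0 in mafba (11 genes), 1 in mafbb (22) and 2 in DMut (123). In DMut it called 2 against mafba (76) and 2 against mafbb (125). LGMN had an adjusted p of 1.48e-05 in mafbb and 3.23e-05 in DMut against siblings.

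These differences changed sign, and the cause was not tested. PPT1 in DMut against siblings (0.02) became -0.00308 with DESeq2 size factors, -0.075 with library size, -0.000174 with no filter, -0.00402 with DESeq2, -0.026 with the block, and -0.41 to 0.29 without 1 tube. With spike-ins PPT1 was -0.51 in mafbb against siblings and 0.99 in DMut against mafbb, PSAP 0.53 in DMut against mafbb, and grnb 0.69 in DMut against siblings (0.47 with the block, -0.35 to 0.44 without 1 tube). IDUA in DMut against siblings was 5.03 without sibling replicate 3, and -10.06 to 5.03 without any 1 tube. DESeq2 ended all 6 pathway calls in DMut against siblings (adjusted p from 0.405 to 1). Spike-in scaling ended those of TPP1, SCPEP1, napsa and NPC2 (0.404, 0.102, 0.183 and 0.077), and robust=FALSE those of TPP1, SCPEP1, napsa and ACP5 (0.28, 0.0908, 0.287 and 0.0885). In the same comparison DESeq2 size factors (0.0582 and 0.0567) and library size alone (both 0.0816) ended SCPEP1 and napsa, the stricter filter TPP1 and napsa (0.0672 and 0.0773), no filter napsa (0.0528), and the compared groups alone TPP1 and SCPEP1 (0.0606 and 0.136). Without mafba replicate 2 and mafbb replicate 3, SCPEP1 was at 0.0683. Against mafba, the calls of NPC2 and ACP5 in DMut were lost in 5 settings each beside single tubes left out (0.0689 to 1 and 0.0536 to 0.714). In DMut against mafbb, napsa was lost in 7 (0.0645 to 0.708) and ACP5 with DESeq2 (0.0799). PSAP in mafbb against siblings was lost with the stricter filter, robust=FALSE and DESeq2 (0.109, 0.146 and 1), and in DMut against either single mutant with DESeq2 (1 and 0.996). No share of a role group moved by more than 1 SD of its tubes under other denominators. In an alternative chosen after seeing the data, 1 tube left out moved 1 mean share by over 1.5 times, that of granulins in mafba, from 0.106% to 0.0572% without replicate 1. Counting depth limits genes with a few counts per tube, for which 0 sets only an upper bound.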
